A study of Homo sapiens with 6 samples.

Results

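The 50 genes described here encode proteins of the mitotic spindle, the kinetochore and the spindle checkpoint, together with the cyclins, kinases and cytokinesis factors that act with them. They were listed by gene symbol for their roles, with earlier results of these data already known, and each was read from the brightest of the probe sets that name that gene alone. They are 50 of 19775 genes with such a probe set. The signal of each probe set was scaled by the median of its array, and all 50 are among the 11835 genes tested, whose scaled signal averaged 1 or more.

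HT29 is a human colon adenocarcinoma cell line, and methotrexate (MTX) is an antifolate that inhibits dihydrofolate reductase. RNA was taken from 3 samples of HT29 cells sensitive to MTX and from 3 samples of HT29 cells that tolerate 10 μM MTX, a line derived earlier by exposure to stepwise concentrations of the drug, and each sample was hybridized to 1 HG U133 PLUS 2.0 array. Sensitive cells were kept in Ham's F12 medium with fetal bovine serum and resistant cells in a medium without glycine, hypoxanthine and thymidine, with dialyzed serum, so that medium and resistance cannot be told apart. The samples are called triplicates, but no source used here says that they were separate cultures, so the p-values cover no more than sample spread, in part perhaps technical. The sources used here do not state whether MTX was present at harvest.

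Mitosis starts when CDK1, bound to cyclin B, is switched on by CDC25 phosphatases, and it proceeds under the Aurora and Polo-like kinases while kinetochores on each centromere take hold of spindle microtubules. The spindle checkpoint keeps the anaphase-promoting complex (APC/C) inactive until all kinetochores are attached, and the APC/C with CDC20 then marks cyclin B and securin for degradation, which frees separase. Transcripts of most of these genes peak late in the cell cycle under the DREAM repressor and the B-Myb and FOXM1 activators. In RNA from bulk cultures, fewer cells in mitosis and less RNA per cell cannot be told apart.

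Late cell cycle promoters commonly hold a CHR element (cell cycle genes homology region, searched as TTTGAA or TTCGAA) and CCAAT boxes, which NF-Y binds. The RefSeq promoter table of GRCh38.p14 holds 42 of the 50 genes, with 54 windows of 300 bases, 250 before and 50 after the start site. The table does not list AURKA, BIRC5, BUB3, CENPM, FOXM1, TPX2, TTK and UBE2C. The 250 bases before the start are printed for 4 genes of the table, as examples of how the motifs lie. These 4 had the largest fall in resistant cells among the genes of the table called lower. The stretch of INCENP lies at chr11:62123761-62124010, that of KIF23 at chr15:69414099-69414348, that of PLK1 at chr16:23678639-23678888 and that of BUB1B at chr15:40160819-40161068, and each is on the plus strand and reads 5′ to 3′. Capitals mark CHR elements and CCAAT boxes, the latter read as ATTGG on the reverse strand.
INCENP: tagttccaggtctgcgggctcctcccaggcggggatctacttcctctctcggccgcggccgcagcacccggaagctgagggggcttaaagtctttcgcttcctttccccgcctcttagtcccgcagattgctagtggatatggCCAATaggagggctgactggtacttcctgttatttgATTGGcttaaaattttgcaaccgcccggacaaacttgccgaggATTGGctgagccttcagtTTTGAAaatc
KIF23: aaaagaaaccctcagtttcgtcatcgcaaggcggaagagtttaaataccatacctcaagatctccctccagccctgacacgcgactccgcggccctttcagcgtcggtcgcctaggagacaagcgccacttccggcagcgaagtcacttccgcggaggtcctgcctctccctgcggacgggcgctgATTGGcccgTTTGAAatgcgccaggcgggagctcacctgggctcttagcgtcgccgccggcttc
PLK1: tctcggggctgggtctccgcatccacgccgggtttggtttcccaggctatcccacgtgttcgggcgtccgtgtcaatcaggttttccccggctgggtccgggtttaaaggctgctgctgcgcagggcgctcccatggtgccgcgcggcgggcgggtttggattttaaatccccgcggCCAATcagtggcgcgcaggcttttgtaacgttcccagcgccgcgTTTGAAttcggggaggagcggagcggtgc
BUB1B: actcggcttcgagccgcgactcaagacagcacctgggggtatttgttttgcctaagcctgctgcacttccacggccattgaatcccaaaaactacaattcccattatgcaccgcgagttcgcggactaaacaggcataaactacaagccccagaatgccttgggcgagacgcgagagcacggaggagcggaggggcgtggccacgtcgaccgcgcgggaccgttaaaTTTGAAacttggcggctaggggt
Each of the 4 sequences holds TTTGAA on the strand shown, with its first base 10 bases before the start in INCENP, 55 in KIF23, 29 in PLK1 and 23 in BUB1B. INCENP has 3 CCAAT boxes, which begin 107, 71 and 28 bases before the start. KIF23 has 1 at 64 bases and PLK1 has 1 at 73 bases, and the BUB1B stretch has none. A match is a run of letters and not a measured binding site.

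With both strands searched, 31 of the 42 genes held a CHR element in at least 1 window (73.8%, 95% Wilson interval 58.9 to 84.7), against 19.5% of 27305 genes in the table and 15.7% of the 9661 tested genes it holds. CCAAT boxes were found in 34 of the 42 (81.0%), against 39.7% of all genes and 43.2% of tested ones, and on the forward strand alone in 45.2%, against 23.3% of all genes. Both motifs together were found in 25 (59.5%), against 7.85% and 6.59%, and on the forward strand alone in 31.0%, against 2.56% of all genes. Among all 35116 windows, 16.4% held a CHR element and 34.6% a CCAAT box. Both motifs occurred among called and uncalled genes. A CHR element was found in 19 of the 25 genes of the table called lower in resistant cells, in 11 of the 16 that were not called, and in CDC25B, the gene that was higher. CCAAT boxes were found in 20 of those 25, in 13 of those 16 and in CDC25B. No test of these shares was made.

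Mitotic genes were mostly lower in the resistant cells. Of the 50, 32 passed an adjusted p under 0.05 and were lower, against 22.5% of all tested genes, and 1, CDC25B, was higher, against 12.4%. The other 17 did not pass the test. The log2 fold change, resistant over sensitive, was below 0 for 47 of the 50, including 15 of the 17 that were not called. Its median was -0.44, against -0.10 over all tested genes. The share of all tested genes below 0 was not counted. The 32 that fell had log2 fold changes between -0.35 for CCNB1 and -1.20 for INCENP, with a median of -0.56. These are modest sizes: 15 of the 50 were lower by at least 1.5-fold as well, against 14.0% of all genes, and none by at least 3-fold, against 2.19%.

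The mitotic genes were brighter than most, with a median scaled signal of 40.8 against 10.8 over the tested genes, and brighter genes were called more often. In a separate fit to genes whose scaled signal averaged 10 or more, 32.5% of all genes and 32 of the 47 mitotic genes were lower. Of these 32, 31 were also called in the main fit, and INCENP, with a mean scaled signal of 4.99, was not tested. Quantile normalization moved the median of all genes from -0.10 to 0.02 and the calls over all genes to 18.8% lower and 21.1% higher. After it, 26 of the 50 were lower and CDC25B was higher, with 42 of the 50 below 0 and a median of -0.26. The test of limma without its mean-variance trend called 24 lower, against 15.9% of all genes. In it FOXM1 (limma adjusted p = 0.080), CCNB1 (0.16), BUB1 (0.071) and BIRC5 (0.084) lost their calls. So did CDC20 (0.18), KIF2C (0.10), DLGAP5 (0.12) and TOP2A (0.082), and CDC25B (0.15) was no longer called higher. Below, this loss is repeated for CDC25B alone. A test that takes the spread of each gene from its own 6 values, with no sharing across genes, called 15 lower with equal variances, against 9.49% of all genes, and none with unequal variances, against 1.13%. In that last test 27 were lower at an unadjusted p under 0.05, against 18.8% of all genes.

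**Figure D1:**
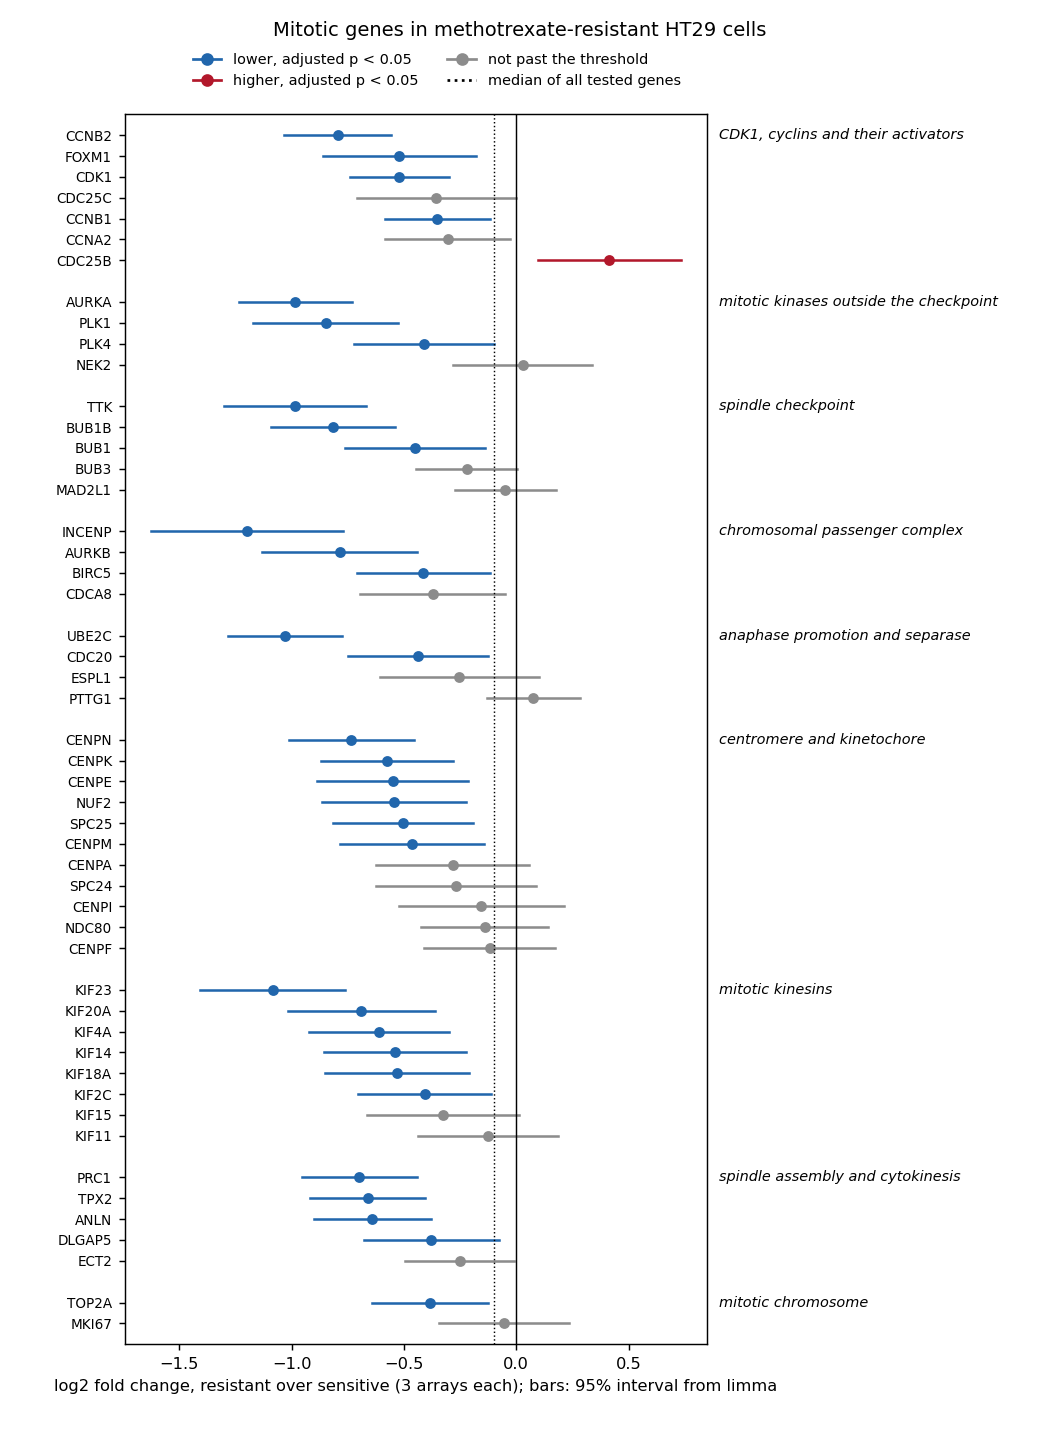
Log2 fold change of the scaled signal, resistant over sensitive cells (3 arrays each), for the 50 mitotic genes grouped by role. Points are limma estimates and bars their 95% intervals, the dotted line is the median of all tested genes (-0.10), and 32 genes are lower (blue), 1 is higher (red) and 17 did not pass the threshold (grey).

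All 3 resistant arrays showed the shift, to different degrees. Relative to the mean of the sensitive arrays, the median log2 value of the 50 genes was -0.34, -0.66 and -0.38 on resistant arrays 1, 2 and 3, and 0.07, -0.04 and -0.01 on the sensitive arrays. Below the sensitive mean lay 47, 49 and 43 of the 50 on the 3 resistant arrays. Resistant array 2 was the lowest of the 6 for 46 of the 50 genes, and all tested genes shared part of its displacement, with a median of -0.20 on it against 0.07 and -0.15 on resistant arrays 1 and 3. With the median of all tested genes taken off, the mitotic genes lay at -0.41, -0.45 and -0.22. In 36 of the 50 genes every resistant array was below every sensitive array, against 29.3% of all tested genes. These were 31 of the 32 called lower, CDC20 being the exception, and CDCA8, KIF15, CCNA2, CENPA and ECT2, which did not pass the test.

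Median signals of the arrays before scaling were 13.3 to 16.9, and correlations of log2 signals were 0.9716 to 0.9786 within groups and 0.9135 to 0.9219 between them. The ratio of 3′ to 5′ probe sets of ACTB, a measure of RNA integrity, was 1.12 to 1.17 on the sensitive arrays and 1.30, 1.29 and 1.17 on the resistant ones, and that of GAPDH was 0.980 to 1.04 on all 6. Its part in the results was not tested. Only 3 arrays a group limit the precision. Of the 32 lower calls, 18 were kept whichever array was left out and 14 were lost without at least 1 array, and the count of lower genes ranged from 22, without sensitive array 1 or resistant array 2, to 36, without resistant array 1. The share of all tested genes called lower moved with it, from 16.1% and 17.02% to 30.2%.

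**Figure D2:**
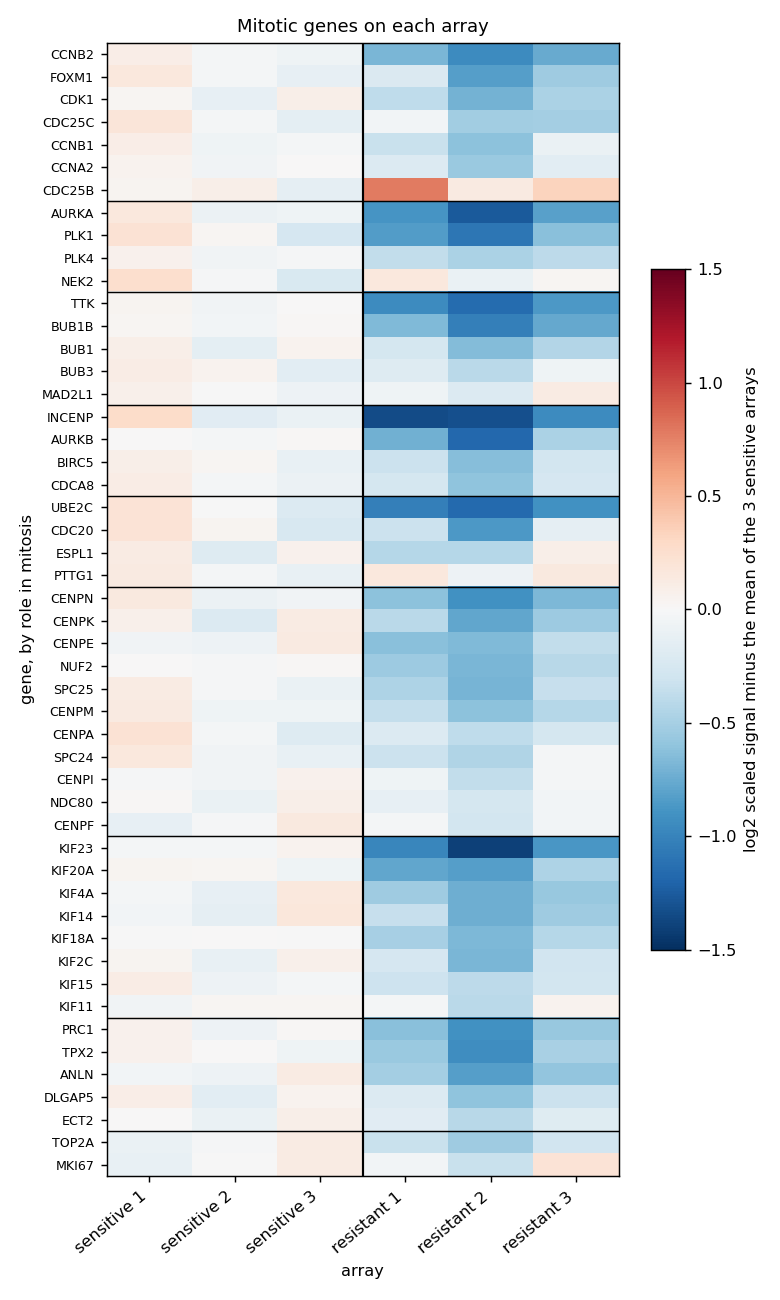
Log2 scaled signal of each of the 50 genes on each array minus its mean on the 3 sensitive arrays (colour, blue lower and red higher), with genes in rows by role. Resistant array 2 has the deepest blue (median -0.66), and CDC25B and PTTG1 are among the few genes in red on resistant array 1.

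CDK1, the kinase that drives entry into mitosis, and its partners were lower in part. Of 7 genes of CDK1, its cyclins and their activators, 4 fell, 1 rose and 2 did not pass. Of all tested genes 22.5% were lower and 12.4% higher, and 32.5% were lower among those averaging 10 or more. The counts by role given here and below rest on few genes each. CCNB2, the gene of cyclin B2, had scaled signals of 172, 157 and 152 on the sensitive arrays and 99.4, 83.1 and 94.96 on the resistant arrays. The groups are well apart, and the gene fell by 0.80 on the log2 scale (SE 0.117, limma adjusted p = 8.7e-07, n = 3 arrays a group). Its call was lost with the mean of its probe sets (adjusted p = 0.14), of which the others were dim, at mean scaled signals of 1.19 and 0.229. CDK1 itself was at 219, 197 and 228 against 164, 131 and 155, again without overlap, with a log2 fold change of -0.52 (SE 0.109, limma adjusted p = 0.00022). CCNB1, the gene of cyclin B1, changed least among the genes that fell (-0.35, limma adjusted p = 0.016), and its call was lost without sensitive array 1 (adjusted p = 0.054), without resistant array 2 (0.13), without a filter on dim genes (0.088) and with unscaled signals (0.094). Scaling to the median of probe sets past the filter also ended the CCNB1 call (0.090). FOXM1, a transcription factor of late cell cycle genes, was at -0.52 (limma adjusted p = 0.014), with the call lost without sensitive array 1 or resistant array 2 (adjusted p = 0.090 for both). CCNA2, the gene of cyclin A2, was at -0.30 (limma adjusted p = 0.082) and CDC25C, a phosphatase that activates CDK1, at -0.36 (adjusted p = 0.11), and neither passed. The second CCNA2 probe set was at -0.91 (limma adjusted p = 6.6e-05 over all probe sets).

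CDC25B, the phosphatase thought to start CDK1 activation at the centrosome, was the one gene of the 50 that was higher. Its scaled signal was 36.7, 37.7 and 32.4 on the sensitive arrays and 60.8, 38.9 and 44.8 on the resistant arrays. The groups do not overlap, but resistant array 2 lies just above the sensitive arrays. The log2 fold change was 0.41 (95% interval 0.10 to 0.73, limma adjusted p = 0.038). Leaving out sensitive array 1, 2 or 3 or resistant array 1 ended the call (adjusted p = 0.060, 0.066, 0.16 and 0.16), as did testing without a filter on dim genes (0.073), over all probe sets in place of genes (0.051) and without the mean-variance trend (0.15).

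Among 4 mitotic kinases outside the checkpoint, 3 fell, where 22.5% of all tested genes were lower. AURKA, the Aurora kinase of centrosomes and spindle poles, was at 187, 157 and 160 on the sensitive arrays and at 91.0, 70.1 and 95.5 on the resistant arrays, a fall of 0.98 on the log2 scale (SE 0.125, limma adjusted p = 4.5e-08). PLK1, the Polo-like kinase of centrosome maturation, kinetochores and cytokinesis, was at 53.7, 47.2 and 38.8 against 25.8, 21.8 and 29.9, with a log2 fold change of -0.85 (SE 0.160, limma adjusted p = 5.4e-05). For both genes the highest resistant array lay well under the lowest sensitive array. PLK4, which starts centriole duplication, was at -0.41 (limma adjusted p = 0.035). Its call was lost after quantile normalization (adjusted p = 0.077) and without sensitive array 1, 2 or 3 or resistant array 2 or 3 (0.15, 0.11, 0.11, 0.056 and 0.072). With the second brightest probe set PLK4 was at -0.30 and was not called (0.14). NEK2, a kinase of centrosome separation, was at 0.03 (95% interval -0.28 to 0.34, limma adjusted p = 0.90), and its sign turned under several alternatives.

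Of 5 spindle checkpoint genes, 3 fell, where 22.5% of all tested genes were lower. TTK, the kinase MPS1 that starts checkpoint signalling at unattached kinetochores, was at 37.6, 35.5 and 36.9 on the sensitive arrays and at 19.0, 16.5 and 20.2 on the resistant arrays. The arrays of each group lie close together, and the log2 fold change was -0.99 (SE 0.157, limma adjusted p = 3.5e-06). BUB1B, the gene of BUBR1, a subunit of the mitotic checkpoint complex, was at 85.1, 81.0 and 84.4 against 52.8, 41.1 and 49.0, a log2 fold change of -0.82 (SE 0.137, limma adjusted p = 8.8e-06). BUB1, a checkpoint kinase, was at -0.45 (limma adjusted p = 0.020), and this call was lost without sensitive array 1 or 3 or resistant array 2 (adjusted p = 0.099, 0.094 and 0.073) and with the mean of its probe sets (0.94). That mean holds dim probe sets, with mean scaled signals of 0.269, 0.374 and 1.16. The second brightest BUB1 probe set was at -0.69 (limma adjusted p = 0.0033 over all probe sets). BUB3, the partner of BUB1 and BUBR1, was at -0.22 (95% interval -0.44 to 0.002, limma adjusted p = 0.12), and MAD2L1, the gene of MAD2, the subunit that binds CDC20, at -0.05 (95% interval -0.27 to 0.17, adjusted p = 0.77). The MAD2L1 estimate turned to 0.07 after quantile normalization. It covers the brightest probe set alone, and a second MAD2L1 probe set was at -0.78 (limma adjusted p = 1.9e-05 over all probe sets).

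The chromosomal passenger complex corrects faulty attachments of kinetochores and acts again in cytokinesis. INCENP, its scaffold, had the largest fall of the 50 genes and is one of the dimmest. Its scaled signal was 8.32, 6.12 and 6.44 on the sensitive arrays and 2.72, 2.77 and 3.60 on the resistant arrays. It was thus 2.29-fold lower, with a log2 fold change of -1.20 (SE 0.211, limma adjusted p = 2.0e-05). AURKB, the kinase of the complex, was at 27.7, 27.2 and 28.0 against 16.8, 12.3 and 19.9, a log2 fold change of -0.79 (SE 0.171, limma adjusted p = 0.00036). The sensitive arrays were nearly equal and the resistant arrays spread more widely below them, and a second, dimmer probe set was not called (adjusted p = 0.12). BIRC5, the gene of survivin, fell by 0.41 on the log2 scale (limma adjusted p = 0.025), a call lost after quantile normalization (adjusted p = 0.070) and without sensitive array 1 or 2 or resistant array 2 (0.11, 0.11 and 0.093). The BIRC5 call was also lost with the mean of its probe sets (0.11). Its dimmer probe sets were at -0.64, 0.11 and -0.44 (limma adjusted p = 0.0091, 0.66 and 0.077 over all probe sets). CDCA8, the gene of borealin, was at -0.37 (95% interval -0.69 to -0.05, limma adjusted p = 0.066).

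Of 4 genes that promote or execute anaphase, UBE2C and CDC20 were called lower, where 22.5% of all tested genes were. UBE2C, the E2 enzyme that starts ubiquitin chains on APC/C substrates, was at 177, 153 and 132 on the sensitive arrays and 75.3, 68.3 and 81.5 on the resistant arrays. It had the lowest adjusted p of the 50 (1.8e-08 by limma), with a log2 fold change of -1.03 (SE 0.126). CDC20, the activator of the APC/C, was at 85.0, 75.8 and 62.2 against 58.9, 40.7 and 67.1, so that resistant array 3 lay above sensitive array 3. Its log2 fold change was -0.44 (limma adjusted p = 0.025), and the call was lost without sensitive array 1 or 2 or resistant array 2 (adjusted p = 0.13, 0.068 and 0.24), after quantile normalization (0.17), with unscaled signals (0.073) and without the filter (0.089). Scaling to the median of probe sets past the filter and the fit to the mean of all probe sets ended the CDC20 call as well (0.084 for both). ESPL1, the gene of separase, was at -0.25 (95% interval -0.61 to 0.10, limma adjusted p = 0.27). PTTG1, the gene of securin, its inhibitor, was at 229, 205 and 194 against 232, 198 and 232, with overlapping groups and a log2 fold change of 0.08 (95% interval -0.13 to 0.28, adjusted p = 0.60).

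**Figure D3:**
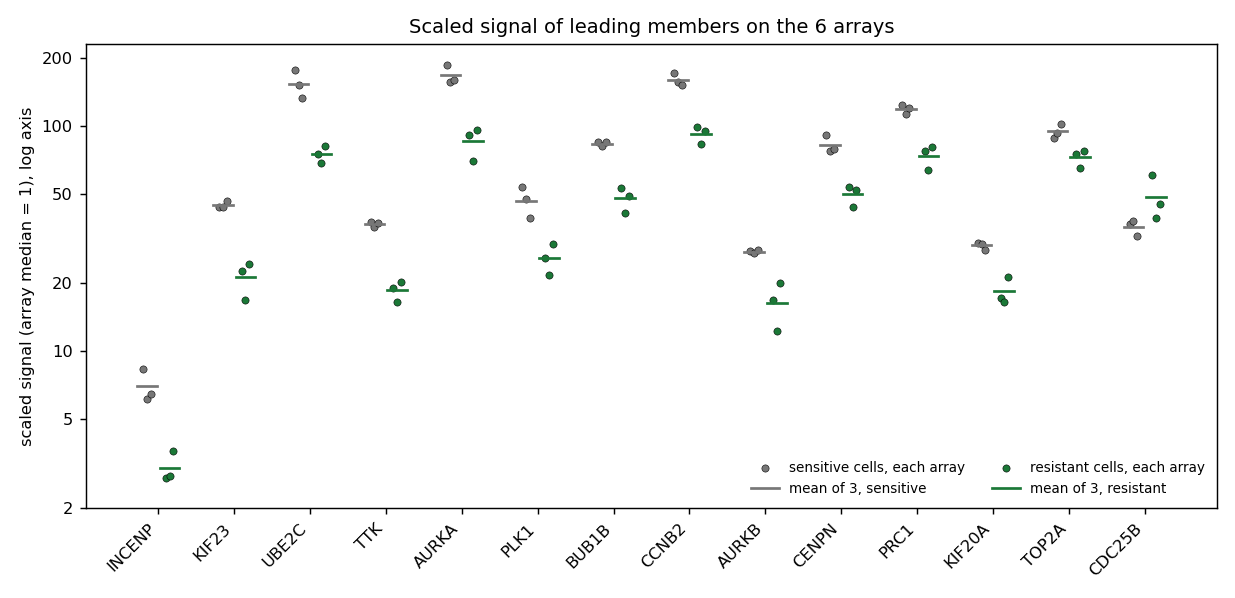
Scaled signal (array median = 1, log axis) of 14 of the genes on each array, grey for sensitive and green for resistant cells, with bars for the mean of 3 arrays. In 13 genes the 3 resistant arrays lie below the 3 sensitive arrays, and in CDC25B they lie above.

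Of 11 centromere and kinetochore genes, 6 fell and 5 did not pass, with a median log2 fold change of -0.46. Of all tested genes 22.5% were lower. CENPN, which reads the CENP-A nucleosome, was at 91.1, 77.5 and 79.2 on the sensitive arrays and 53.6, 43.7 and 51.7 on the resistant arrays, a log2 fold change of -0.73 (SE 0.137, limma adjusted p = 4.7e-05). CENPK and CENPM, like CENPN subunits of the inner kinetochore, were at -0.58 (limma adjusted p = 0.0018) and -0.46 (adjusted p = 0.021). CENPE, a kinetochore motor that brings chromosomes to the spindle equator, was at -0.55 (limma adjusted p = 0.0088). The 4 genes of the NDC80 complex, the main microtubule binder of the kinetochore, were unlike each other in their estimates. NUF2 was at -0.55 (limma adjusted p = 0.0065) and SPC25 at -0.50 (adjusted p = 0.0097), whereas SPC24 was at -0.27 (adjusted p = 0.25) and NDC80 at -0.14 (adjusted p = 0.47). The differences between these 4 genes were not tested, and the 95% interval of SPC24 (-0.62 to 0.09) holds the estimates of NUF2 and SPC25.

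CENPA, the histone H3 variant that marks centromeres, was at -0.28 (limma adjusted p = 0.20), CENPI, of the inner kinetochore, at -0.16 (0.54) and CENPF, a large protein of the outer kinetochore, at -0.12 (0.56). A second CENPI probe set was at -0.68 (limma adjusted p = 0.014 over all probe sets). CENPF and NDC80 turned to 0.07 and 0.05 after quantile normalization. The CENPE call was lost without sensitive array 3 (adjusted p = 0.074) and the SPC25 call without sensitive array 1 (0.073). That of CENPM was lost without sensitive array 1, 2 or 3 or resistant array 2 (0.13, 0.065, 0.053 and 0.058), and that of CENPN with the mean of its probe sets (0.79). The CENPN mean holds a probe set under the filter, with a mean scaled signal of 0.551, and the brighter ones were at -0.73, -0.66 and -0.66.

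Mitotic kinesins, the motors that build and use the spindle, were lower in 6 of 8, against 22.5% of all tested genes. KIF23, the kinesin of centralspindlin at the midzone, was at 43.7, 43.8 and 46.2 on the sensitive arrays and 22.6, 16.8 and 24.4 on the resistant arrays, 2.12-fold lower (log2 fold change -1.08, SE 0.160, limma adjusted p = 8.5e-07). KIF20A, which carries the passenger complex to the midzone, was at 30.3, 30.0 and 28.0 against 17.1, 16.6 and 21.4, a log2 fold change of -0.69 (SE 0.161, limma adjusted p = 0.00083). Neither gene overlapped between the groups. KIF4A, a chromosome-bound kinesin that also limits midzone length, was at -0.61 (limma adjusted p = 0.0018), KIF14, a cytokinesis kinesin, at -0.54 (0.0062), KIF18A, which dampens chromosome movements, at -0.53 (0.0077) and KIF2C, the depolymerase MCAK, at -0.41 (0.028).

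The KIF14 call was lost without sensitive array 3 (adjusted p = 0.072) and that of KIF18A without sensitive array 2, narrowly (0.0502). That of KIF2C was lost after quantile normalization (0.068) and without sensitive array 1, 2 or 3 or resistant array 2 (0.089, 0.053, 0.12 and 0.13). The motors that push spindle poles apart were not called. KIF15 was at -0.33 (95% interval -0.67 to 0.01, limma adjusted p = 0.13) and KIF11, the gene of Eg5, at -0.13 (95% interval -0.44 to 0.19, adjusted p = 0.57). The KIF11 estimate turned to 0.06 after quantile normalization.

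Of 5 genes of spindle assembly and cytokinesis, 4 fell, where 22.5% of all tested genes were lower. PRC1, which bundles antiparallel microtubules in the midzone, was at 124, 113 and 120 on the sensitive arrays and 77.1, 63.6 and 80.2 on the resistant arrays, a log2 fold change of -0.70 (SE 0.126, limma adjusted p = 2.8e-05). TPX2, which activates Aurora A and nucleates microtubules near chromosomes, was at -0.66 (limma adjusted p = 6.9e-05), and ANLN, the gene of anillin at the cleavage furrow, at -0.64 (adjusted p = 0.00013). DLGAP5, the gene of HURP, which stabilizes kinetochore fibres, was at -0.38 (limma adjusted p = 0.046). This was the call nearest the threshold, and it was lost without any 1 array other than resistant array 1 (adjusted p between 0.061 and 0.18) and after quantile normalization (0.092). It was also lost without the filter on dim genes (0.061) and in the fit to the mean of all probe sets of each gene (0.055). ECT2, which acts at the cell equator in cytokinesis, was at -0.25 (95% interval -0.50 to -0.01, limma adjusted p = 0.10). A second ECT2 probe set was at -0.49 (limma adjusted p = 0.021 over all probe sets).

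TOP2A, the topoisomerase that untangles sister chromatids, was at 88.3, 92.7 and 102 on the sensitive arrays and 74.9, 65.1 and 77.1 on the resistant arrays. Its groups do not overlap, and it fell by 0.38 on the log2 scale (SE 0.129, limma adjusted p = 0.018). The call was lost without sensitive array 2 or 3 or resistant array 2 (adjusted p = 0.063, 0.14 and 0.056) and after quantile normalization (0.12). MKI67, the gene of Ki-67, which coats mitotic chromosomes and is widely used as a marker of cycling cells, was at 59.1, 63.4 and 69.5 against 62.2, 50.8 and 73.4. Resistant arrays were both the lowest and the highest of the 6. The log2 fold change was -0.06 (95% interval -0.34 to 0.23, limma adjusted p = 0.80), and it turned to 0.13 after quantile normalization.

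Several genes have more than 1 probe set, and these did not always give the same answer. The 50 genes have 100 probe sets, of which 92 were tested. When all 26833 probe sets were tested together, 51 of the 92 were lower, against 19.5% of all, and 1 was higher. CDC25B lost its call in this test (adjusted p = 0.051). Of 24 genes with at least 2 tested probe sets, 17 had all of them below 0, a share that was not counted over all genes. All 4 probe sets of CDK1 were lower, between -0.52 and -1.14, and so were all 3 of AURKA, between -0.98 and -1.05.

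Other genes depended on the probe set. A second probe set of MAD2L1 was at 154, 138 and 146 on the sensitive arrays and 83.3, 77.7 and 94.8 on the resistant arrays, a log2 fold change of -0.78 (limma adjusted p = 1.9e-05), where the brightest one was at -0.05. The second probe set of CCNA2 was at -0.91 (limma adjusted p = 6.6e-05), that of CENPI at -0.68 (0.014) and that of ECT2 at -0.49 (0.021), although none of these genes was called from its brightest probe set. MKI67 went the other way. Its 4 probe sets, from the brightest to the dimmest, were at -0.06, -0.03, 0.32 and 0.52, and the last was the 1 that was higher (limma adjusted p = 0.042). The second probe set of CCNB2 was near the limit of the filter, with a mean scaled signal of 1.19, and was at 0.54 (adjusted p = 0.40).

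Shares were also counted by chromosome. All 4 of the mitotic genes on chromosome 15, KIF23, BUB1B, CCNB2 and PRC1, were lower, with a median log2 fold change of -0.81. On that chromosome 49.0% of 386 tested genes were lower, the highest share of 23 chromosomes, and the median of its genes was -0.42. After quantile normalization the share was 44.8%. On chromosome 20, where 30.8% of 344 tested genes were lower, UBE2C, AURKA and TPX2 were lower and CDC25B was higher. All 3 mitotic genes of chromosome 17 were also lower, where 16.2% of tested genes were, as were both of those on chromosome 11 (26.9%) and on chromosome 16 (111 of 555 genes). Without chromosome 15, 28 of 46 mitotic genes were lower (60.9%), against 21.6% of all other genes, with a median of -0.41. The part of chromosome 15 in the falls of its 4 genes was not tested.

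**Figure D4:**
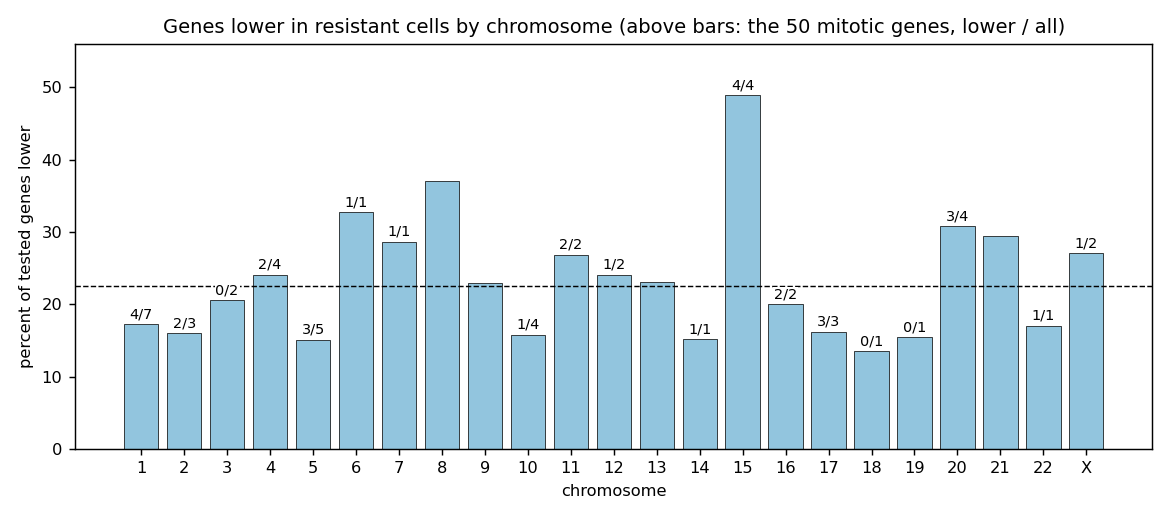
Percent of tested genes lower in resistant cells (limma, adjusted p under 0.05) on each chromosome, with the number of the 50 mitotic genes that were lower over their number on that chromosome above each bar. The dashed line is the share over all tested genes (22.5%), and chromosome 15 stands highest at 49.0%, with 4 of its 4 mitotic genes lower.

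Other genes of cell division, taken from 9 lists that hold none of the 50, were counted in the same fit. Of 146 tested, 61 were lower and 7 higher (41.8% lower, median log2 fold change -0.30), where 22.5% of all tested genes were lower and 12.4% higher. After quantile normalization 51 were lower and 16 higher, where 18.8% and 21.1% of all genes were. On chromosome 15 lay 10 of the 146, and all 10 were lower (ARHGAP11A, ARPP19, CEP152, HAUS2, KNL1, NUSAP1, OIP5, TUBGCP4, TUBGCP5 and ZWILCH), with a median of -0.86. On the other chromosomes 51 of 136 were lower (37.5%, median -0.26).

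The largest share lower among the 9 lists was that of other kinesins, spindle and cytokinesis proteins. Of 20 of these, 12 were lower and none was higher (median -0.43), or 10 lower and 1 higher after quantile normalization. BORA, an activator of Aurora A, and ARHGAP11A were both at -0.81, CEP55, a midbody protein of abscission, at -0.61 and FAM83D at -0.58. Of 31 other kinetochore and centromere proteins, 15 were lower and 1, NSL1, was higher (0.57). In these lists 60.0% and 48.4% were lower, against 22.5% of all tested genes. OIP5, which helps load CENP-A, was at -1.05, KNL1, the docking platform for BUB proteins, at -0.95, ZWINT, a partner of KNL1, at -0.88 and CENPW, of the inner kinetochore, at -0.91.

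Of 16 genes of the gamma-tubulin ring and of augmin, which branches spindle microtubules, 9 were lower and 1 was higher. The share lower was 56.25%, against 22.5% of all tested genes. HAUS7, an augmin subunit, was at 33.5, 27.4 and 28.4 on the sensitive arrays and 6.89, 5.99 and 7.68 on the resistant arrays, a log2 fold change of -2.12 (SE 0.169, limma adjusted p = 3.2e-13), a larger change than in any of the 50. HAUS2 and HAUS6, of the same complex, were at -1.29 and -1.26, TUBGCP4 at -0.90 and TUBGCP2, of the gamma-tubulin ring, was higher at 0.64. Condensin had 3 of 8 genes lower, NCAPG2 at -1.09, NCAPG at -0.67 and NCAPD3 at -0.64. That share of 37.5% is near the 32.5% of all genes whose scaled signal averaged 10 or more. After quantile normalization 3 condensin genes were lower and 1 was higher.

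Cohesin and its regulators had 4 of 15 genes lower (26.7%, near the 22.5% of all tested genes) and 2 higher, the subunit SMC3 at 0.74 and the loader NIPBL at 0.55, with PDS5A at -0.57. After quantile normalization the counts were 2 lower and 3 higher. Subunits and regulators of the APC/C, counted with the E2 enzyme UBE2S, had 5 of 16 lower (31.25%) and none higher. Of all genes whose scaled signal averaged 10 or more, 32.5% were lower. The largest falls were those of ANAPC7 at -0.89 and of UBE2S, which extends the chains begun by UBE2C, at -0.69. Centriole and centrosome genes had 1 of 9 lower, CEP152 at -0.56, and 1 higher, CEP63 at 0.62, or 1 lower and 2 higher after quantile normalization.

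Regulators of mitotic entry and exit had 7 of 17 lower and 1 higher (41.2% lower, against 22.5% of all tested genes). After quantile normalization 7 were lower and 3 higher. CDC25A, a phosphatase of the same family as CDC25B, was at 10.8, 10.3 and 10.6 on the sensitive arrays and 4.67, 2.92 and 4.77 on the resistant arrays, a log2 fold change of -1.39 (SE 0.196, limma adjusted p = 3.6e-07). WEE1, the kinase that opposes CDC25, was at -0.85, ARPP19, which inhibits the phosphatase PP2A, at -0.99, CDCA3 at -0.68 and the kinase PBK higher at 0.38. Of 14 genes of the DREAM complex, B-Myb and NF-Y, which act on late cell cycle promoters, 5 were lower and 1 was higher. The share lower was 35.7%, against 22.5% of all tested genes. The other 8 were not called, and after quantile normalization 5 of the 14 were lower and 2 higher. MYBL2, the gene of B-Myb, was at -0.82, NFYA and NFYB, subunits of NF-Y, at -0.63 and -0.50, and LIN37, of DREAM, at 0.69. NFYC, another NF-Y subunit, was at -0.21 and was not called (limma adjusted p = 0.37). The DREAM genes called lower were TFDP1, the partner of E2F factors, at -0.72 and RBBP4 at -0.60.

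Earlier phases of the cycle were counted beside the same shares of all tested genes, 22.5% lower and 12.4% higher. Of 45 genes of DNA replication origins and forks, 22 were lower and 1 was higher (48.9% lower, median -0.32), with GINS1 at -1.35, CLSPN at -1.05, TIPIN at -0.93, POLD3 at -0.87 and RPA3 higher at 0.52. Of 22 tested G1 cyclins, CDK inhibitors and E2F factors, 9 were lower and 1 was higher (40.9% lower), with CCNE2, the gene of cyclin E2, at -1.43, E2F5 at -1.09 and RB1 higher at 0.38. The inhibitors CDKN2A, with scaled signals of 142, 121 and 116 against 67.6, 60.1 and 61.1, and CDKN1C, at -0.91, were also lower. The difference between the 50 mitotic genes and these lists was not tested.

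**Figure D5:**
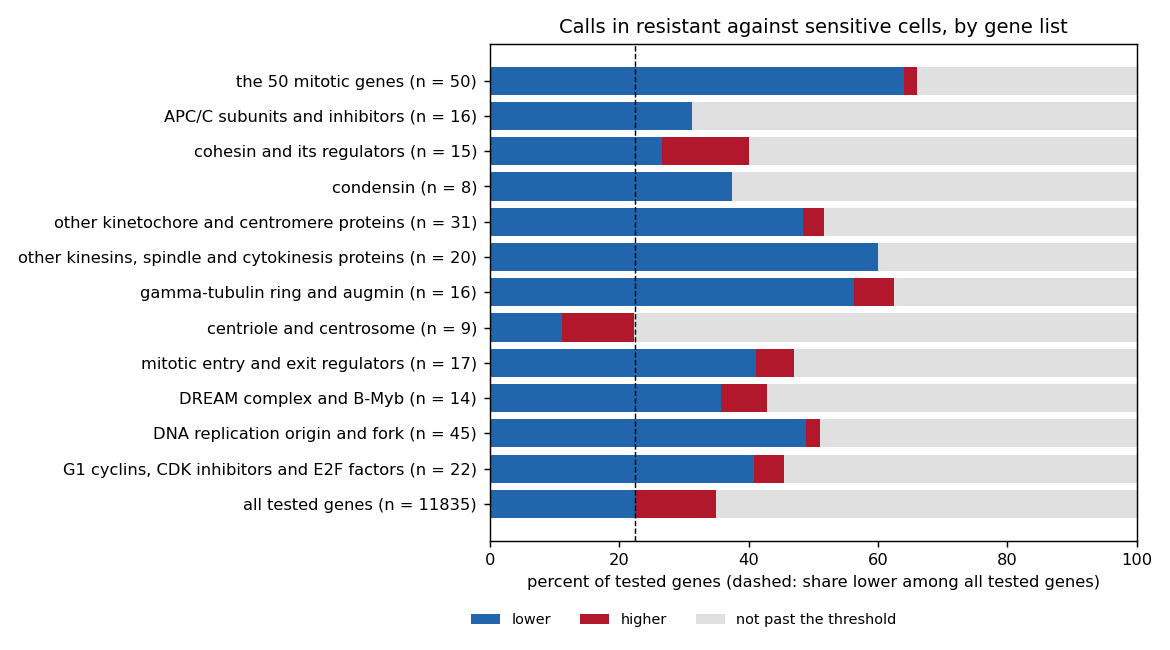
Percent of tested genes lower (blue) and higher (red) in resistant cells by limma at an adjusted p under 0.05, for the 50 mitotic genes, 11 other lists of cell cycle genes and all tested genes. The 50 have 32 lower and 1 higher, and the dashed line is the share lower among all tested genes (22.5%).

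Of 10 markers of colon epithelium, 8 were tested, and their summed scaled signal, carried mainly by keratins, EPCAM and LGALS4, was 2056 to 2268 on the sensitive arrays and 1597 to 1795 on the resistant ones. Of the 8, 5 were lower, with KRT8 at -0.77, and EPCAM was at -0.01. The 1 called higher, CDH17, was dim, at 0.480 to 1.82 on the sensitive arrays and 1.92 to 2.91 on the resistant ones. CDX1 and CDX2, defining factors of intestinal epithelium, were under the filter on every array. Of 11 markers of other cell types, 7 had mean scaled signals under 1, namely COL1A2, COL3A1, PTPRC, CD3E, ALB, GFAP and DES. The sum of the 11 was 7.98 to 10.8 on the sensitive arrays and 20.9 to 24.2 on the resistant ones. COL1A1 gave most of the difference, at 0.465 to 0.890 on the sensitive arrays and 9.46 to 14.6 on the resistant ones. VIM was at 1.28 to 1.92 and 3.34 to 3.92, and CD14 at 1.56 to 3.05 and 0.0902 to 0.793. The part of these shifts in the mitotic genes was not tested.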

How the data were processed

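RNA of 3 MTX-sensitive and 3 MTX-resistant samples of HT29 cells was hybridized to 6 arrays, grouped here by the submitters' labels. The values the authors deposited are MAS5 output, in which every probe set has 1 linear intensity per array. MAS5 was run in a version not given in the sources used here. GeneSpring normalization, the filter and the t-test of the methods come after these values and were not part of them.

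Signals were scaled to an array median of 1, floored at 0.01 and log2-transformed. Groups were compared in limma 3.58.1 under R 4.3.3 (lmFit, then eBayes with trend), with Benjamini-Hochberg adjustment over the 11835 genes whose scaled signal averaged 1 or more. A gene was called at an adjusted p under 0.05 with no fold threshold. The p-values of limma borrow error across genes. Of 54675 probe sets, 62 controls were left out, and genes were named from the 41091 probe sets that the platform annotation gives 1 gene. Detection calls were not used. The fit was tested on simulated data. Promoters are from RefSeq for GRCh38.p14. Figures were drawn with matplotlib 3.10.9.

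The 50 genes, the other lists, the tests and the alternatives were chosen with earlier results of these data known. Named with all array values are the 12 genes with the largest falls, the gene that rose and at least 1 gene of each role, and in other lists up to 4 called genes with the largest change, with the genes called higher added after their values were seen. MAD2L1, HAUS7, PTTG1, MKI67, CDK1, CDC20, CDC25A and CDKN2A were also given array values after these were seen. RBBP4 and NFYB were named later, to show which genes of their list were lower, and NFYC as the NF-Y subunit that was not called. Alternatives were other scalings, floors, filters, tests, probe sets and fold thresholds, a replicate block and each array left out. The filter at a mean of 10 and the count without chromosome 15 were added after the data were seen.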

Additional observations from a re-analysis of the deposited data

How the results depend on the processing

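Across 20 other settings, of which the filter at a mean of 10 was added after the data were seen, the median log2 fold change of the 50 genes stayed below 0 (-0.36 to -0.51 with 1 array left out, -0.26 after quantile normalization). The count of lower genes was 22 to 36 with 1 array left out (16.1% to 30.2% of all genes) and 24 to 37 under the settings not named next (11.4% to 32.5% of all genes). It was 15 with equal variances, 0 with unequal variances (27 at an unadjusted p under 0.05), 15 of 24 with the second brightest probe set (22.3% of all genes), 15 at 1.5-fold and 0 at 3-fold. CDC25B, the 1 gene called higher, gave a count of 0 to 1 with 1 array left out. That count was also 0 with no filter, with equal or unequal variances, without the trend, with the mean of all probe sets and at 1.5-fold or 3-fold. With the second brightest probe set it was 0 of 24, but CDC25B has 1 probe set and was not tested there. CCAAT boxes on the forward strand alone were found in 45.2% of 42 genes, against 23.3% of all genes.

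Signs turned mostly in genes near 0. With the second brightest probe set CCNB2 was at 0.54, NEK2 at -0.21 and BUB3 at 0.09, and with the mean of all probe sets NEK2 was at -0.0912, BUB1 at 0.0426, BUB3 at 0.0991, CENPF at 0.0361 and MKI67 at 0.19. After quantile normalization MAD2L1 was at 0.0683, CENPF at 0.0689, NDC80 at 0.0482, KIF11 at 0.0569 and MKI67 at 0.13, and with scaling to the median of probe sets past the filter MAD2L1 was at 0.0517 and MKI67 at 0.0441. With 1 array left out NEK2 ranged from -0.0878 to 0.15, MAD2L1 from -0.13 to 0.0309, KIF11 from -0.22 to 0.0111 and MKI67 from -0.18 to 0.0809. The cause of these changes was not tested.

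A replicate block called 37 genes lower (27.6% of all genes), among them all 32, and 1 higher. Samples with the same number had deviations correlated at 0.0752, 0.0229 and 0.048, so the numbers were not taken as a pairing, although each sample correlated best with its own number. With 3 arrays a group and dim probe sets near background, small differences could not be resolved.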
